A study of Mus musculus with 10 samples.

Results

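The 10 genes described here are Ddit4 and its paralogue Ddit4l, the sestrins Sesn1, Sesn2 and Sesn3, the tuberous sclerosis genes Tsc1 and Tsc2, their target Rheb, and Eif4ebp1 and Akt1s1. They were taken as every gene probe on the array whose gene name, or whose RefSeq accession, belongs to one of these genes, which gave 21 of 41174 gene probes and 10 of 19505 named genes. Every one of the 21 passed the filter on dim probes, and 20 were well above background on all 10 arrays. The group was chosen on the measured difference of Ddit4, the 1 probe called between these same animals, with the genes of its pathway added by name, so the differences between groups given for the 10 genes are a description and carry no test.

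The kinase complex mTORC1 sits on the lysosome and switches cells towards protein synthesis and growth when growth factors, energy and amino acids are plentiful. Rheb, a small GTPase, activates the complex directly, and the TSC1 and TSC2 proteins form the brake that keeps Rheb inactive. Ddit4 (also called REDD1) and Ddit4l (REDD2) act on that brake under stress, while sestrins report amino acid shortage through the GATOR complexes. In bone, mTORC1 signalling takes part in the differentiation and matrix production of osteoblasts.

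Femurs came from 10 male ICR mice aged 6 months, an outbred stock with no allele or transgene named in the labels, and all were housed alone before the experiment. The 5 control mice moved freely. The 5 unloaded mice were hung by the tail, head down, so that the hind legs carried no weight, and their bones were taken after 24 h while the legs were still unloaded. RNA of each femur was labelled with Cy3 and hybridised to its own Agilent array, and removal of marrow or attached muscle is not stated in the labels.

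Slides largely followed the groups. Slide 1 carried controls 1 to 4, slide 2 carried control 5 with unloaded animals 1 to 3, and slide 3 carried unloaded animals 4 and 5. The share of spots well above background was 89.8% to 95.5%, and unloaded 5 had the lowest. Means of marker lists took only markers measured on all 10 arrays, a choice made after seeing the data, since outlier spots left Bglap and Ltf without a value in unloaded 3 and Slc4a1 in control 5. The mean log2 level of 7 osteoblast and osteocyte markers ran from 2.57 to 2.86 in control and from 2.78 to 3.13 in unloaded animals. That of 10 skeletal muscle markers ran from 3.43 to 4.70 and from 3.49 to 4.65, and that of 6 neutrophil markers from 5.92 to 6.22 and from 5.97 to 6.19. These ranges overlapped, and bone, muscle and marrow RNA was read in both groups, but overlap does not show an equal make-up. Differences were negative for 9 of 10 skeletal muscle, 7 of 7 adipocyte and 6 of 7 erythroid markers, beside 7515 of 18955 genes. They were positive for 7 of 8 osteoblast and osteocyte, 5 of 6 osteoclast and 4 of 7 neutrophil markers, beside 11440 of 18955 genes. For T and NK cells 4 of 6 markers were positive, and for B cells 2 of 6. The T and NK cell list had the largest share at an unadjusted limma p below 0.05, 3 of 6, all higher, beside 15.8% of all genes. No marker was called. In such whole tissue, fewer cells of a type and less RNA per cell cannot be told apart.

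Every level below is the log2 signal of a probe relative to the 75th percentile of its array, so a level of 0 is the brightness of the 75th percentile probe. Every difference is the unloaded mean minus the control mean on that scale, with its 95% interval from limma. Levels of different probes are not compared with each other, because probes bind with different strength.

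Ddit4 was the gene of the group that differed most, and its 250 bases upstream of the annotated start are shown beside those of Ddit4l because the paralogues share a protein family but differed unequally here. Both are read 5′ to 3′ on the strand of the gene from RefSeq sequence of build GRCm38.p6, the first at chr10:59951771-59952020 on the minus strand and the second at chr3:137623422-137623671 on the plus strand.
Ddit4: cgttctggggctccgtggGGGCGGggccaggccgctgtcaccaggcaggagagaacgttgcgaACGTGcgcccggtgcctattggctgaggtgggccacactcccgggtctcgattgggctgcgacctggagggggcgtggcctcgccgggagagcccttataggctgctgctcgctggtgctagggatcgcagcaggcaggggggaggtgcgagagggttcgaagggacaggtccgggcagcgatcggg
Ddit4l: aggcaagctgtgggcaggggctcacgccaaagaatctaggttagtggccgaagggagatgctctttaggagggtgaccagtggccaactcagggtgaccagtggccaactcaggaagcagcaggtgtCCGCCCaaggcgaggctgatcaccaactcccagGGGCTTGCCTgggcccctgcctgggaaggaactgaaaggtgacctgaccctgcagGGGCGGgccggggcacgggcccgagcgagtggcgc

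Capitals mark matches to any of 8 motifs searched on both strands. In the Ddit4 window these are a GC box, GGGCGG, and the core of hypoxia elements, ACGTG. In the Ddit4l window they are GC boxes and 1 half-site of the p53 element. The GC box occurred in 32.7% of 32851 promoter windows of the same length and the hypoxia core, which also lies inside the E-box, in 16.6%. The p53 half-site occurred in 7.13%. The Ddit4 window held none of the letters of the glucocorticoid receptor element (its inverted repeat, 0.387% of all windows), the ATF4 element TGATGNAA (3.45%), the cAMP response element TGACGTCA (1.55%), the E-box CACGTG (6.02%), the FoxO element GTAAACA (3.17%) or the p53 half-site. The Ddit4 window had 70.0% G and C, that of Ddit4l 65.2% and the median window 52.4%. RefSeq windows were matched for 9 of the 10 genes. Of these only Rheb held an E-box, at -96 to -91 from its start.

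Ddit4, a stress-induced protein that restrains mTORC1 through the TSC brake, was higher in every unloaded femur. Its log2 level was 3.57, 3.45, 3.82, 3.48 and 3.46 in controls 1 to 5 and 4.86, 4.32, 4.84, 4.80 and 4.82 in unloaded animals 1 to 5. Unloaded animal 2 was the lowest of its group, and it still stood above the highest control, control 3. The other 4 unloaded animals lay within a narrow band. The difference was 1.17 (SE 0.12, interval 0.91 to 1.44), or 2.26-fold. Within slide 2 alone, with its single control, it was 1.21.

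Of the 21 probes 1 was called at a limma adjusted p below 0.05, that of Ddit4, beside 0.00259% of the 38629 probes tested. The same probe was the 1 of 21 whose groups did not overlap, beside 3.16% of all probes tested. Since Ddit4 was chosen for this difference, nothing is read from these counts. The call was lost without control 4 (limma adjusted p = 0.0565), control 5 (0.0567), unloaded 1 (0.0507), unloaded 3 (0.0503) or unloaded 4 (0.0544), with body weight as a covariate (0.0511) and with slide as a fixed block. The limma difference stayed between 1.08 and 1.28 over 21 alternatives. Slides 1 and 3 each held 1 group, so the estimate with slide as a fixed block is the difference within slide 2, with its single control. No p-value is given for that fit, and its loss of the call was not near the threshold as the others were.

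**Figure D1:**
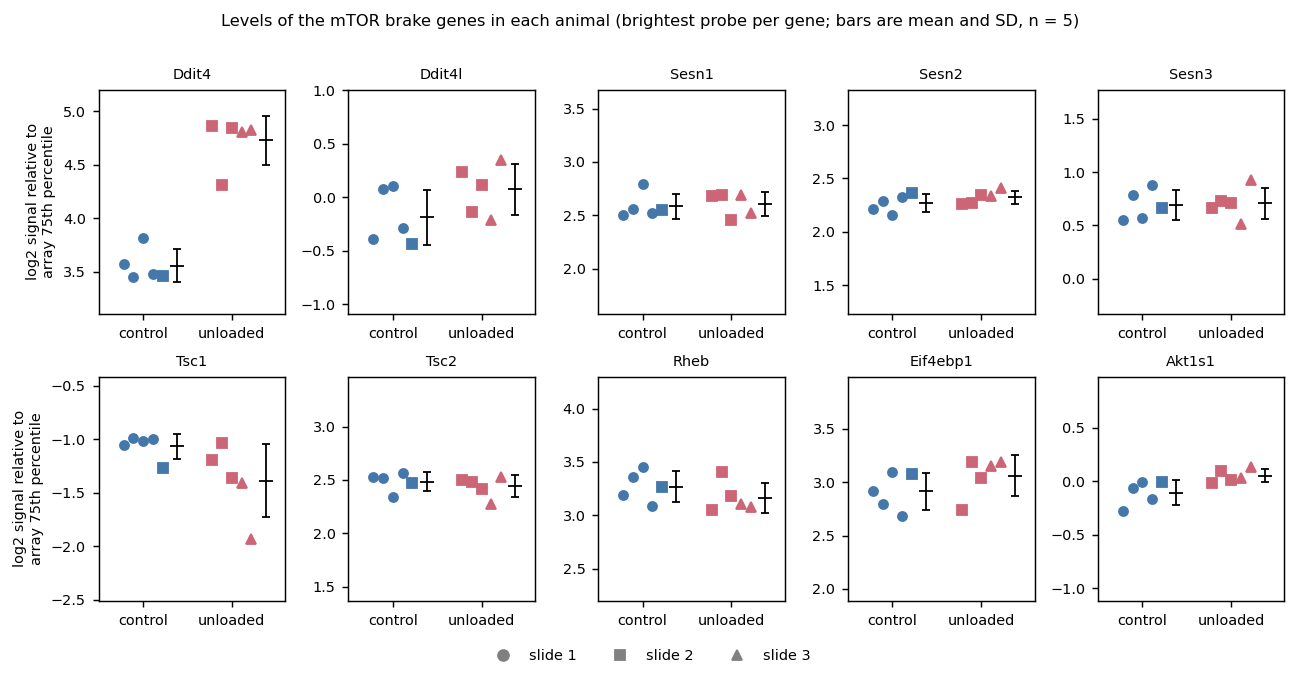
Log2 level relative to the 75th percentile of the array (vertical axis, the same span of 2.1 log2 units in every panel) for the probe of each gene with the highest mean, in 5 control and 5 unloaded animals; symbols give the slide and bars the mean and SD. The groups separate for Ddit4, at 3.45 to 3.82 against 4.32 to 4.86, and overlap for the other 9 genes.

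Ddit4l, the paralogue of Ddit4 that also restrains mTORC1, was read by 3 probes that gave unequal differences. For probe A_51_P126702 the log2 level was -0.39, 0.07, 0.10, -0.29 and -0.44 in controls 1 to 5 and 0.24, -0.14, 0.12, -0.21 and 0.35 in unloaded animals 1 to 5. Controls 2 and 3 stood with the unloaded animals, so the groups overlapped. The difference was 0.26 (interval -0.05 to 0.57). For A_52_P541752 the controls were at -1.25, -0.40, -0.24, -1.10 and -1.27 and the unloaded animals at -0.16, -0.39, -0.64, -0.80 and -0.41. Here too controls 2 and 3 were far above the other 3 controls. The difference was 0.37 (interval -0.07 to 0.81), and that of the probe A_52_P311853 was -0.02 (interval -0.35 to 0.31).

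Once the group means were removed, probe A_52_P541752 of Ddit4l varied with each of the other probes from animal to animal. Over 10 animals it correlated with A_51_P126702 at r = 0.83 (rho 0.77, exact permutation p = 0.0128 and 0.0149, r = 0.83 without the 2 animals farthest from the median) and with A_52_P311853 at r = 0.85 (rho 0.88, exact permutation p = 0.0150 and 0.0139, r = 0.78 without the 2 farthest). Over the 17 pairs of probes compared within a gene, the adjusted p of both was 0.0850. The third pair, A_51_P126702 with A_52_P311853, had r = 0.53 (rho 0.48, exact permutation p = 0.154 and 0.196, adjusted p = 0.437, r = 0.61 without the 2 farthest). Within slide 2 the 3 differences were 0.51, 0.35 and 0.87, all above those over all arrays, and the single control of that slide, control 5, was the lowest control for all 3 probes. Ddit4l deviations had r = 0.62 with the mean of the skeletal muscle markers (rho 0.47, exact permutation p = 0.0825 and 0.205, r = 0.48 without the 2 farthest). With the mean of the adipocyte markers they had r = 0.59 (rho 0.55, exact permutation p = 0.0982 and 0.125, r = 0.41 without the 2 farthest). The adjusted p of both was 0.491 over 80 pairs of a gene and a marker list, and the part of muscle or fat RNA in the level of Ddit4l was not tested.

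The sestrins, which pass amino acid shortage and other stress on to the mTORC1 switch, differed little. For Sesn1, a sestrin under p53 control, probe A_51_P233954 was at 2.50, 2.56, 2.79, 2.52 and 2.55 in controls and at 2.68, 2.69, 2.46, 2.69 and 2.52 in unloaded animals. Control 3 was the highest of all 10. The difference was 0.02 (interval -0.18 to 0.23), and the other probes of Sesn1 gave -0.03 and 0.02.

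Sesn2, a leucine sensor induced in the ATF4 stress response, was read by 2 probes. Probe A_52_P154710 was at 2.22, 2.29, 2.15, 2.32 and 2.36 in controls and at 2.26, 2.27, 2.34, 2.34 and 2.41 in unloaded animals. Control 3 was the lowest and unloaded animal 5 the highest of the 10, and the groups overlapped. The difference was 0.06 (interval -0.13 to 0.24), and the second probe, A_51_P161354, gave 0.05 (interval -0.14 to 0.24). These intervals leave out a change of the size seen for Ddit4. With median scaling both differences turned negative, at -0.04 and -0.05, and within slide 2 they were -0.07 and -0.01.

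Sesn3, a sestrin under FoxO control, had 3 probes with differences of 0.02, 0.11 and 0.11. Probe A_51_P127215 was at 0.55, 0.79, 0.57, 0.88 and 0.67 in controls and at 0.66, 0.73, 0.71, 0.52 and 0.93 in unloaded animals. Unloaded animal 5 was the highest and unloaded animal 4 the lowest of all 10. The 95% interval ran from -0.21 to 0.24. After removal of the group means this probe followed A_51_P246773 (r = 0.80, rho 0.73, exact permutation p = 0.00424 and 0.0201, adjusted p = 0.0720 over 17 pairs), but r fell to 0.48 without unloaded 5 and control 4, and the third probe followed neither (r = -0.23 and -0.26).

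**Figure D2:**
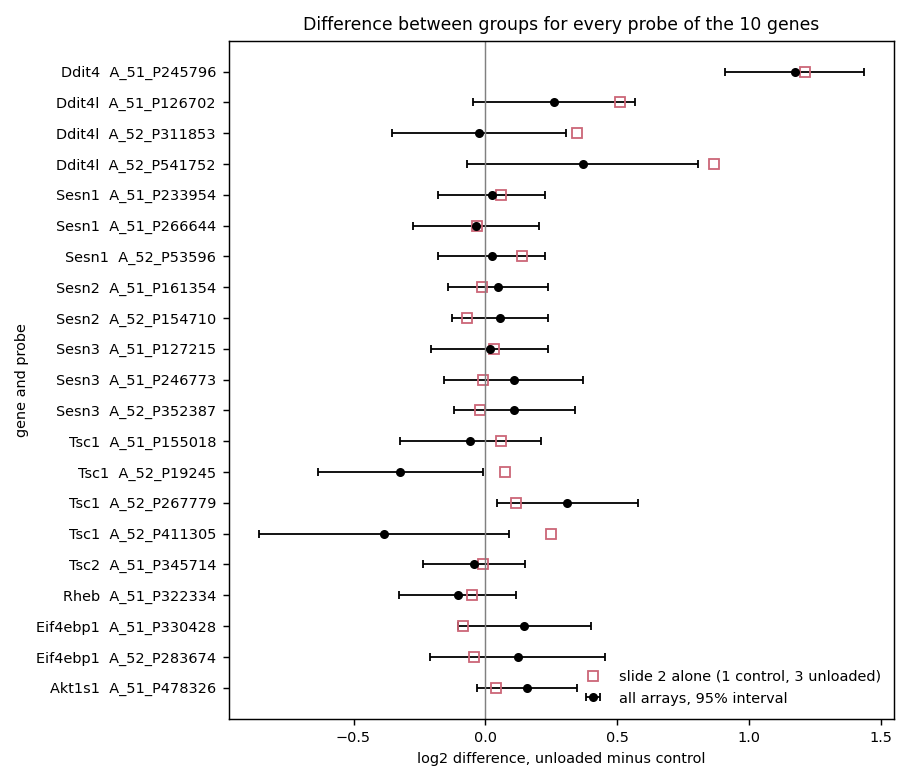
Difference in log2 level, unloaded minus control (horizontal axis), for all 21 probes of the 10 genes (vertical axis): points give the difference over all arrays with its 95% limma interval, and open squares the difference within slide 2, which holds 1 control. Ddit4 stands at 1.17, and the other 20 probes lie between -0.38 and 0.37.

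Tsc1, the scaffold subunit of the TSC brake, had the probes that disagreed most, though Ddit4l and Sesn1 also had probes of both signs. Tsc1 probe A_52_P19245 was at -1.05, -0.99, -1.02, -0.99 and -1.27 in controls and at -1.19, -1.04, -1.36, -1.41 and -1.93 in unloaded animals. Unloaded animals 3, 4 and 5 lay below all controls, with unloaded animal 5 far below the rest. The difference was -0.32 (interval -0.64 to -0.0097). Probe A_52_P267779 went the other way, from -1.60, -1.77, -1.92, -1.42 and -1.50 in controls to -1.37, -1.65, -1.12, -1.30 and -1.21 in unloaded animals. There 4 unloaded animals lay above all controls, and the difference was 0.31 (interval 0.04 to 0.58).

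The remaining Tsc1 probes gave -0.06 (A_51_P155018, interval -0.33 to 0.21) and -0.38 (A_52_P411305, interval -0.86 to 0.09). A_52_P411305 was not well above background in unloaded animal 5. The 2 probes with negative differences of -0.32 and -0.38 followed each other within groups (r = 0.71, rho 0.79, exact permutation p = 0.121 and 0.0142, adjusted p of r = 0.437, r = 0.84 without unloaded 5 and unloaded 2), and A_52_P267779 ran against A_52_P19245 (r = -0.54, rho -0.53, exact permutation p = 0.140 and 0.136, r = -0.33 without the same animals). Within slide 2 all 4 Tsc1 differences were positive, at 0.06, 0.08, 0.12 and 0.25, but the single control there, control 5, was the lowest control for both A_52_P19245 and A_52_P411305. The array annotation assigns A_52_P19245, A_52_P267779 and A_51_P155018 to the same RefSeq transcript, and A_52_P411305 to another sequence record. Which exons the 4 probes bind is not given in the sources used here, and no direction for Tsc1 can be read from these probes.

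**Figure D3:**
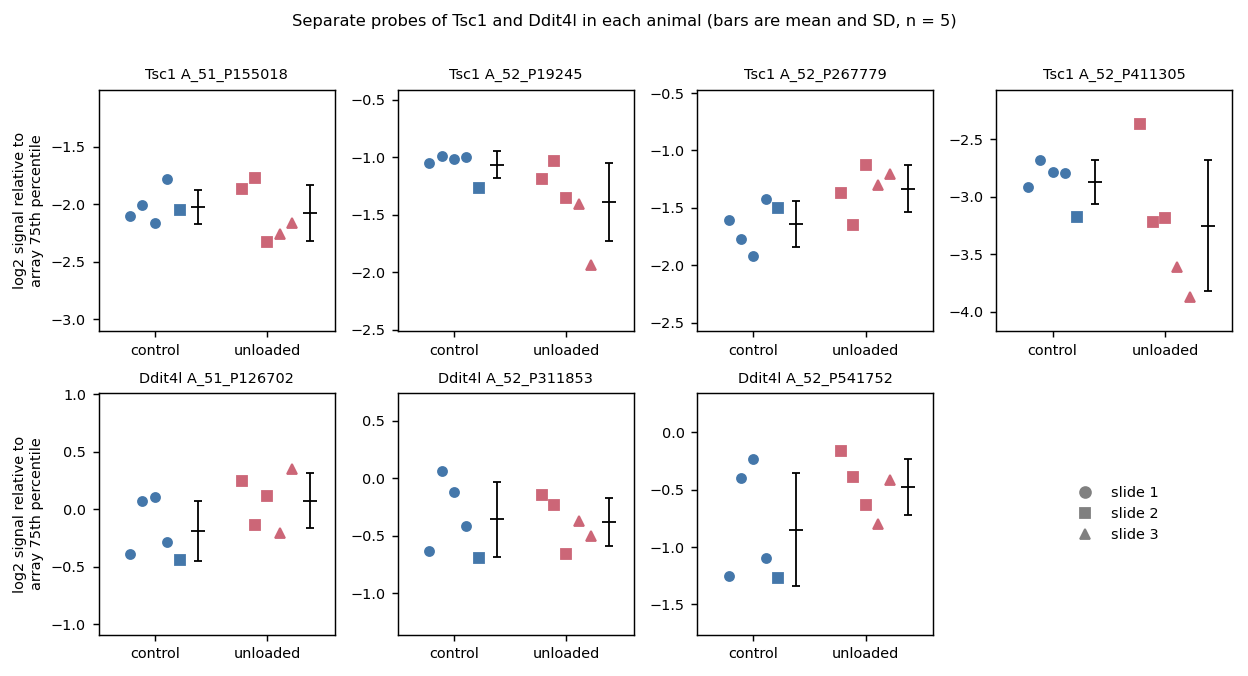
Log2 level relative to the 75th percentile of the array (vertical axis) for the 4 probes of Tsc1 (upper row) and the 3 probes of Ddit4l (lower row) in 5 control and 5 unloaded animals; symbols give the slide and bars the mean and SD. Tsc1 probes A_52_P19245 and A_52_P267779 move in opposite directions, by -0.32 and 0.31, and controls 2 and 3 stand above the other controls for all 3 Ddit4l probes.

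Tsc2, the subunit that switches Rheb off, was at 2.52, 2.51, 2.34, 2.56 and 2.47 in controls and at 2.50, 2.48, 2.41, 2.27 and 2.53 in unloaded animals. The groups overlapped almost fully. The difference was -0.04 (interval -0.24 to 0.15). Rheb, the activator of mTORC1 and so the one gene here that is no brake, was at 3.19, 3.36, 3.45, 3.09 and 3.26 in controls and at 3.05, 3.40, 3.18, 3.11 and 3.08 in unloaded animals. Of the unloaded animals, 2 lay below all controls. The difference was -0.11 (interval -0.33 to 0.12) and kept its sign under all 21 alternatives.

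Eif4ebp1 encodes the repressor of cap-dependent translation that mTORC1 inactivates by phosphorylation. Probe A_51_P330428 was at 2.92, 2.80, 3.09, 2.68 and 3.07 in controls and at 2.74, 3.18, 3.04, 3.15 and 3.19 in unloaded animals. Unloaded animals 2, 4 and 5 lay above all controls, and unloaded 1 among the lowest values. The difference was 0.15 (interval -0.10 to 0.40). The second probe gave 0.12 (interval -0.21 to 0.45), and within slide 2 both were negative, at -0.08 and -0.04.

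Akt1s1, which encodes the mTORC1 inhibitor PRAS40, was at -0.27, -0.07, -0.01, -0.16 and -0.01 in controls and at -0.01, 0.09, 0.01, 0.03 and 0.14 in unloaded animals. Only unloaded animal 1 did not clear every control. The difference was 0.16 (interval -0.03 to 0.35). It was 0.06 with median scaling and 0.04 within slide 2.

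Apart from Ddit4, the 20 probes thus had a median difference of 0.04, with 13 positive and 7 negative, beside a median of 0.07 over all 38629 probes tested, of which 24195 were positive. An unadjusted limma p below 0.05 was reached by 2 of the 20, both of Tsc1 and with opposite signs, beside 16.1% of all probes tested. That is 10.0% of the 20, of which 0 were called, and nothing is read from a comparison that chose the group. With median scaling the members divided into 9 positive and 12 negative, Ddit4 included, where the main scaling gave 14 and 7.

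The rest of the mTOR pathway was read from 4 lists of 75 genes, of which 73 were tested, each by its brightest probe. No gene of these lists was called in either direction (limma adjusted p at or above 0.240), beside 0.00528% of 18955 genes. At an unadjusted limma p below 0.05 there were 2 higher and 8 lower genes, 13.7% of the 73 beside 15.8% of all genes. Of all 18955 genes, 1876 were higher and 1113 lower at that p. The median difference of the 73 genes was -0.04, and that of all genes 0.05.

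Of the 10 genes of the mTOR complexes, 7 had positive and 3 negative differences. Mtor, the kinase, had a difference of -0.15 (SE 0.13), Deptor, an inhibitory subunit, -0.13 (SE 0.09), and Prr5, a subunit of mTORC2, 0.26 (SE 0.15), and 0 of 10 reached an unadjusted p below 0.05. For Mtor and Deptor, 1 of 2 probes had that sign.

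In the amino acid sensing arm, to which sestrins report, 3 of 26 genes (11.5%) reached an unadjusted p below 0.05, beside 15.8% of all genes. Slc38a9, a lysosomal arginine sensor, had -0.36 (SE 0.12, 3 of 4 probes with that sign), Wdr59, a GATOR2 subunit, 0.32 (SE 0.13, 3 of 3 probes) and Seh1l, which serves in GATOR2 and in the nuclear pore, -0.28 (SE 0.08). The probe of Seh1l had unloaded animals below all controls, but 1 of 3 probes shared its sign. Groups did not overlap, in either direction, for 625 of 18955 genes. The limma adjusted p of the 3 genes lay between 0.240 and 0.287. Unloaded 5 was the lowest of all animals for Slc38a9, at -0.19 with the next at 0.22. It was the highest for Wdr59, at 0.37 with the next at 0.06.

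Among growth factor and energy inputs, 4 of 21 genes (19.0%) reached an unadjusted limma p below 0.05, all lower. Over all genes the share was 15.8% in either direction, with 1113 of 18955 lower. Among the 4 genes of the list were Pdpk1 (-0.30, SE 0.12), the kinase that activates AKT, Prkaa1 (-0.23, SE 0.10), a catalytic subunit of AMPK, and Pik3cb (-0.27, SE 0.11), a PI3 kinase. For each of these 3 genes other probes had the opposite sign, with 1 of 3 on that side for Pdpk1 and 1 of 2 for Prkaa1 and Pik3cb. Their limma adjusted p lay between 0.283 and 0.284. Unloaded 5 was the lowest of all animals for Pdpk1, at 0.45 with the next at 0.88, and for Pik3cb, at -1.28 with the next at -1.13.

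Among the outputs of mTORC1, 3 of 16 genes (18.8%) reached an unadjusted p below 0.05, beside 15.8% of all genes. The paralogues of Eif4ebp1 had negative differences, Eif4ebp2 -0.37 (SE 0.17, limma adjusted p = 0.306) and Eif4ebp3 -0.31 (SE 0.12, adjusted p = 0.262, 2 of 2 probes). For both, unloaded 5 was the lowest of all animals. It was at 0.81 for Eif4ebp2, with the next at 1.47, and at 0.07 for Eif4ebp3, with the next at 0.28. Tfeb, the lysosomal transcription factor that mTORC1 holds in the cytoplasm, had 0.26 (SE 0.11, adjusted p = 0.292). Eif4ebp1 itself had 0.15, and the difference between the paralogues was not tested.

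Ddit4 is known to be induced by several stress programmes, and lists of their targets were read the same way. None of their genes was called. An unadjusted limma p below 0.05 was reached by 10.0% of the ATF4 list, 12.5% of the p53 list and 11.8% of the hypoxia list. Over all genes the share was 15.8%. Of 20 genes of the ATF4 stress response 2 reached an unadjusted p below 0.05, both higher: Cebpb, a transcription factor, at 0.46 (SE 0.15) and Chac1, a glutathione-degrading enzyme, at 0.42 (SE 0.14). Of 16 p53 targets 2 did, both lower: Gtse1, a regulator of p53 in the cell cycle, at -0.30 (SE 0.10) and Ccng1, cyclin G, at -0.42 (SE 0.19, 1 of 2 probes). Of 17 hypoxia targets 2 did, with opposite signs: Slc2a1, a glucose transporter, at 0.31 (SE 0.11) and Kdm3a, a histone demethylase, at -0.29 (SE 0.11, 1 of 3 probes). The medians of these lists were 0.11, -0.04 and -0.02. For Ccng1 unloaded 5 was the lowest of all animals, at -0.05 with the next at 0.48. For Cebpb it was the highest, at 3.90 with the next at 3.52.

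Of 16 glucocorticoid targets 8 (50%) reached an unadjusted limma p below 0.05, all higher. Over all genes the share was 15.8% in either direction, with 1876 of 18955 higher. The median difference of the list was 0.25, beside 0.05 over all genes. The glucocorticoid list stood higher as a group in an earlier reading of these arrays, so its count is no independent support. Per1, a clock gene with a glucocorticoid response, was at 0.10, -0.30, -0.10, -0.14 and -0.19 in controls and at 0.39, 0.41, 0.96, 1.21 and 0.98 in unloaded animals. Every unloaded animal lay above the controls, as for Ddit4, but the adjusted p of Per1 was 0.153 in limma. Groups did not overlap, in either direction, for 625 of 18955 genes.

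**Figure D4:**
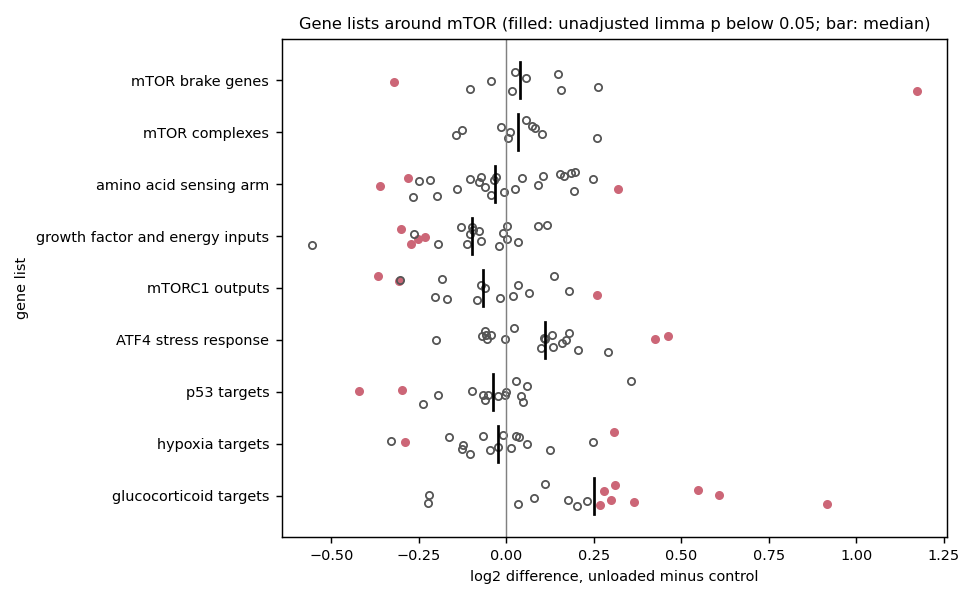
Difference in log2 level, unloaded minus control (horizontal axis), for each tested gene of the mTOR brake group and of 8 gene lists (vertical axis, points spread within a row); filled points had an unadjusted limma p below 0.05 and bars give the median. Ddit4 at 1.17 stands apart from the 73 genes of the mTOR pathway lists, which lie between -0.56 and 0.32.

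Whether Ddit4 varied from animal to animal together with other genes was asked after the group means were removed, which leaves the difference between groups out. Over 10 animals its deviations were set against the 9 other members and Per1, Tsc22d3 and Fkbp5, which are glucocorticoid targets. The largest r was that with Fkbp5 at 0.62 (rho 0.39, exact permutation p = 0.153 and 0.281, r = 0.49 without unloaded 2 and control 3), followed by Ddit4l at 0.50 (rho 0.52, p = 0.203 and 0.154 by exact permutation, r = 0.21 without the same animals). Tsc22d3 had 0.48 and Per1 0.47, falling to 0.27 and 0.22 without the same animals. The smallest adjusted p over the 12 pairs was 0.612 by exact permutation, so none passed.

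Of 18907 other genes measured on all arrays, Dspp, a dentin and bone matrix gene, Tspan8, a tetraspanin, and Slc22a4, an organic cation transporter, had the deviations most like those of Ddit4, with r of 0.91, 0.90 and 0.89 (rho 0.83, 0.71 and 0.79; exact permutation p of r = 0.00833, 0.0144 and 0.0162; of rho 0.0120, 0.0335 and 0.0139). Without unloaded 2 and control 3, which lay farthest from the median of Ddit4, r was 0.76, 0.78 and 0.65. They were picked as the top 3 of all genes, and the adjusted p over all genes was 0.998 for each. With normexp background the r of Dspp was 0.37 (exact permutation p = 0.273).

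Body weight, 28.6 g ± 1.78 (SD, n = 5) in control and 27.3 g ± 1.72 (SD, n = 5) in unloaded mice, had r = -0.00065 with Ddit4 within groups over all 10 animals (rho -0.05, exact permutation p = 0.999 and 0.890). Without the animals farthest from the median weight, control 3 and unloaded 4, r was -0.72, so the value rests on those 2 animals. Of the 80 pairs of a member and a marker list, the smallest p of r belonged to Sesn3 with 6 erythroid markers (r = -0.79, rho -0.76, exact permutation p = 0.00993 and 0.0195, adjusted p = 0.383, r = -0.70 without control 3 and unloaded 5). Tsc2 with the same markers had r = -0.79 (rho -0.66, exact permutation p = 0.0107 and 0.0496, r = -0.64 without the same animals). Sesn1 went the other way, at r = 0.83 (rho 0.79, exact permutation p = 0.0230 and 0.0124, r = 0.74 without the same animals). For Sesn2 r was -0.70 (rho -0.71, exact permutation p = 0.0307 and 0.0342, r = -0.32 without the same animals). The adjusted p of each was 0.383. With Slc4a1, missing in control 5, kept in the mean of the other arrays, r was -0.84 for Sesn2, 0.72 for Sesn1 and -0.57 for Sesn3 and Tsc2. The adjusted p was also 0.383 for Tsc2 (r = -0.69) and Eif4ebp1 (r = 0.72) with neutrophil markers and Akt1s1 with adipocyte markers (r = 0.78). Without the 2 farthest animals their r was -0.65, 0.25 and 0.53. The smallest p of rho was that of Tsc1 with 7 osteoblast and osteocyte markers (r = 0.72, rho 0.93, exact permutation p = 0.0467 and 0.000417). Its adjusted p of r was 0.467, and p of rho was not adjusted.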

How the data were processed

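The authors deposited Cy3 spot intensity from 1-colour arrays (Agilent design 014868). Per the file headers, Feature Extraction 9.1.3.1 was run with protocol GE1-v5_91_0806, which subtracts background and detrends within an array. The deposited series matrix holds the same intensity, rounded, at 0.995 to 1.00 times the scanner value.

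After 97 outlier spots were dropped, spots of a probe were averaged as log2 intensity. The 75th percentile of each array (637 to 903 intensity units) was then subtracted. Tests took the 38629 probes that in either group reached 4 of 5 arrays well above background, with 3 or more measured arrays in both. Comparisons used limma (version 3.58.1, in R 4.3.3; figures matplotlib 3.10.9), two-sided, without covariates, and Benjamini-Hochberg adjustment over all tested probes, threshold 0.05. The number of arrays limits the precision. On simulated arrays of 38550 probes (5 unloaded against 5 control), 88.0% of 200 probes changed by 1 on the log2 scale were recovered with 10 false calls. The adjusted threshold is easier to pass with 200 changed probes than with few, and 1 probe was called in these data. The share recovered in the simulation therefore does not carry over to the genes not called here. Correlations took deviations from group means and all 14400 permutations within groups, two-sided.

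RefSeq accessions (GRCm38.p6), or else gene names, named the probes, and the brightest tested probe stood for a gene. Named were all members, up to 3 genes per list by p, the 3 genes most like Ddit4, and Per1, Tsc22d3 and Fkbp5; 1 further gene is not reported here. The members and lists were chosen with earlier results of these data known. Alternatives covered background, scaling, filter, series matrix, variance model, blocks, body weight and each array left out.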

Additional observations from a re-analysis of the deposited data

Results flagged for a closer look

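In 7 of 42 sets of 5 animals (21 probes in each group) 1 animal stood apart, its gap to the next animal exceeding the Dixon critical share of its group's range. In independent sets chance alone gives about 1 in 20. These sets share arrays, and some share a gene, so the count was not tested against that rate. Unloaded 2 was low for Ddit4, at 4.32 against 4.80 for the next animal (a gap of 0.899 of the range). Control 3 was high for Sesn1 by 2 probes, at 2.79 against 2.56 for A_51_P233954 (0.806) and at -0.04 against -0.30 for A_52_P53596 (0.7103). The third Sesn1 probe, A_51_P266644, was high in control 1 at -0.96 against -1.24 (0.744) and in unloaded 5 at -0.95 against -1.31 (0.836). Unloaded 5 was also high for Sesn3 A_51_P246773, at -0.92 against -1.37 (0.757), and control 5 was low for Tsc1 A_52_P19245, at -1.27 against -1.048 (0.788).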

How the results depend on the processing

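Over 21 alternatives the Ddit4 difference stayed between 1.08 and 1.28. Its call was kept under 14 and lost under 7: with slide as a fixed block (1.21, the same contrast as within slide 2), with body weight as a covariate (1.17, limma adjusted p = 0.0511) and without any of 5 single arrays. Leaving out 1 array gave differences of 1.14 to 1.28 and 0 to 1 member probes called. Genes of the 8 pathway lists called numbered 0 under every alternative. Of the 419 values of the other 20 member probes under alternatives, 12 moved by more than 1 SD, all with slide as a fixed block or median scaling, and 30 turned sign. With the replicate number as a block the Ddit4 difference was 1.17 (adjusted p = 0.0453); same-numbered animals deviated together at r between -0.14 and 0.18, and 1 of 10 arrays correlated best with its own number, so the numbers were not taken as pairs. The r between Ddit4 and Dspp was 0.37 with normexp background. Leaving out 1 array gave r of 0.86 to 0.96 for Dspp, 0.70 to 0.96 for Tspan8 and 0.65 to 0.92 for Slc22a4. The r with body weight was 0.053 with normexp background, 0.23 with median scaling and -0.48 to 0.49 with 1 array left out. Over all probes 1 was called, but 3 with a trend and robust variance or slide as a fixed block, 2 without control 2, and 0 with body weight or without the 5 arrays above. The causes of these changes were not tested.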
